A study of Mus musculus with 18 samples.

Results

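Red blood cell and neutrophil transcripts were followed in dorsal root ganglia, the clusters of sensory neuron cell bodies beside the spinal cord. They comprised 9 of the 15730 genes in the deposited count table. The genes were chosen by symbol: the alpha globins Hba-a1 and Hba-a2, every symbol beginning with Hbb- (the beta globins Hbb-bs and Hbb-bt), the heme enzyme gene Alas2, and the neutrophil genes S100a8, S100a9, Ngp and Retnlg. All 9 were in the count table, 5 from red blood cells and 4 from neutrophils, and all 9 entered every test. The RNA came from ganglia of the sciatic nerve of C57BL/6 mice aged 6 to 8 weeks, taken 24 hours after surgery, with 3 samples in each of 6 groups and 2 mice pooled per sample. Sham_Saline was the sham procedure on the sciatic nerve in saline and SNA_Saline was sciatic nerve injury in saline. SNA_NAC was the same injury with the antioxidant N-acetyl-cysteine at 30 mM, and Sham_H2O2 was the sham procedure with the oxidant hydrogen peroxide at 13 mM. DCA was injury of the dorsal columns of the spinal cord, and LAM was laminectomy, the bone removal that exposes the cord. The design asks what sciatic injury, dorsal column injury, the antioxidant and the oxidant each change in the ganglion.

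Red blood cells of the mouse carry haemoglobin, a tetramer of alpha and beta globin chains with heme. Alas2 encodes the erythroid enzyme that starts heme synthesis. Neutrophils are short-lived phagocytes that circulate in blood and enter injured tissue. S100a8 and S100a9 encode the subunits of calprotectin, an abundant neutrophil cytosolic protein, Ngp encodes neutrophilic granule protein, and Retnlg encodes a resistin-like protein made in neutrophils and their precursors. Sensory ganglia have a dense blood supply, so that blood cells in vessels can contribute RNA to a dissected ganglion, and in such bulk samples fewer cells of a type and less RNA per cell cannot be told apart.

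The globin genes lie in 2 clusters of near-identical copies, which bears on how their reads can be counted. In the GRCm38 genome (GENCODE M21 annotation), the protein-coding genes Hba-a1 and Hba-a2 lie on the plus strand of chromosome 11, at chr11:32283511-32284465 and chr11:32296489-32297298. Hbb-bs and Hbb-bt lie on the minus strand of chromosome 7, at chr7:103826534-103828096 and chr7:103812524-103813996. The coding sequences of Hba-a1 and Hba-a2, 426 bases each, differed at 1 base, position 381 counted from the A of the start codon. Those of Hbb-bs and Hbb-bt, 441 bases each, differed at 1 base, position 417. The 60 coding bases around each difference are shown, from position 346 to 405 for alpha and from 382 to 441 for beta, with the differing base in capitals.
Hba-a1: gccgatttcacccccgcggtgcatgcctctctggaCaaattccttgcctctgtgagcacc
Hba-a2: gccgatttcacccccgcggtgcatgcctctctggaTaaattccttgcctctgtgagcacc
Hbb-bs: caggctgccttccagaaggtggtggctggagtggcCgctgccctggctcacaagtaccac
Hbb-bt: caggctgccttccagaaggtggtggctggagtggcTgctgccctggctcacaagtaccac
Of all 100-base windows of the transcript, the read length of the study, 56.5% for Hba-a1 and 74.5% for Hba-a2 also occurred in the other alpha gene, and 62.6% for Hbb-bs and 54.8% for Hbb-bt in the other beta gene. How reads matching both copies were counted is not given in the sources used here, so the level of each single copy is uncertain. No such window of Alas2, S100a8, S100a9, Ngp or Retnlg occurred in the transcript of another gene. Alas2 lies at chrX:150547375-150570638 on the plus strand. S100a8 and S100a9 are neighbours on chromosome 3, at chr3:90668978-90670035 on the plus and chr3:90692632-90695721 on the minus strand. Ngp lies at chr9:110419747-110423012 and Retnlg at chr16:48872621-48874496, both on the plus strand.

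The promoters are shown because the genes of a cell type varied together. In the 250 bases before the RefSeq start site (GRCm38.p6, all 9 genes matched), 17 short strings were searched on both strands, and the 4 described here were picked after that search. GATAA, the core of the site bound by GATA factors, was present in 5 of 5 red blood cell genes, in 1 of 4 neutrophil genes and in 22.6% of all 32851 promoters. CCAAT was present in 4 of 5, 2 of 4 and 33.8%, and CACCC in 5 of 5, 2 of 4 and 52.0%. TTNNGCAA, a form of the site of C/EBP factors, was present in 1 of 5 red blood cell genes (Hbb-bs), in 3 of 4 neutrophil genes and in 9.6% of all promoters. No match of these 4 strings overlapped a match of another, except in Retnlg, where CCAAT and CACCC shared 1 base. The upstream windows of Hba-a1 and Hba-a2 shared a run of 247 bases, so these 2 genes are not independent examples. Shown are the parts of these windows outside the annotated genes, 5′ to 3′ on the strand of the gene, with GATAA or its reverse complement in capitals for the red blood cell genes and TTNNGCAA or its reverse complement in capitals for the neutrophil genes. A match is a description of letters and not a measured binding site.
Hba-a1 (chr11:32283422-32283510, plus strand): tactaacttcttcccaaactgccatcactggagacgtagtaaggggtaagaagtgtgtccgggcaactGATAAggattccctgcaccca
Hbb-bs (chr7:103828097-103828178, minus strand): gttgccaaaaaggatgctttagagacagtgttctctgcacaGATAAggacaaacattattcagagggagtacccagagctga
Hbb-bt (chr7:103813997-103814173, minus strand): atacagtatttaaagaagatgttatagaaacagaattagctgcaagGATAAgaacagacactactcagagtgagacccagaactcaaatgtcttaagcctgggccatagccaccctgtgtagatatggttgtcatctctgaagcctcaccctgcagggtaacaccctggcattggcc
Alas2 (chrX:150547167-150547374, plus strand): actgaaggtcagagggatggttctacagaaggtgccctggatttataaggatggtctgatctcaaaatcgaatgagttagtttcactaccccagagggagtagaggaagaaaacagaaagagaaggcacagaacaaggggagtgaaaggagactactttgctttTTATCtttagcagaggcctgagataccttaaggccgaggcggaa
S100a9 (chr3:90695722-90695971, minus strand): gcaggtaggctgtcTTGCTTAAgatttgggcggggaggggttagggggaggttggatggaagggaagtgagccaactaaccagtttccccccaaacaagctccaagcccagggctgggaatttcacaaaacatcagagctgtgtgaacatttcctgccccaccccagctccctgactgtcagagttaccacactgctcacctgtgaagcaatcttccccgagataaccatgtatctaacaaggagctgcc
Ngp (chr9:110419558-110419746, plus strand): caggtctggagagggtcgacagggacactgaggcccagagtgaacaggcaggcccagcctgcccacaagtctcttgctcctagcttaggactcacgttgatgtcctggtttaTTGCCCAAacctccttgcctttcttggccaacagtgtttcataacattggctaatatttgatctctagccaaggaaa
Retnlg (chr16:48872358-48872607, plus strand): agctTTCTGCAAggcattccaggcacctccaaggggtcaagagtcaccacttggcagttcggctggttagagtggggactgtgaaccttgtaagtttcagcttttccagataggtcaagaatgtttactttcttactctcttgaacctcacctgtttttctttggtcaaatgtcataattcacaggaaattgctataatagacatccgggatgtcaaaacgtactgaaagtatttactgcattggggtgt

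All 9 transcripts were detected in all 18 samples. Per length, the mean FPKM over the 18 samples (the length-scaled and depth-scaled values of the authors) was highest for Hbb-bs at 298 ± 156 (SD, n = 18). S100a8 followed at 274 ± 93.3 and S100a9 at 272 ± 90.9, and these 3 means differed by less than their SDs. Hbb-bt stood at 71.5 ± 33.6, Hba-a2 at 51.6 ± 38.1, Ngp at 45.4 ± 13.0 and Hba-a1 at 44.5 ± 37.7, with overlapping ranges of mean ± SD. Retnlg reached 24.1 ± 7.60 and Alas2 7.87 ± 3.21. The adult globins carried the signal: among the embryonic globins of the FPKM table, Hbb-y was above 0 in 3 libraries with a highest value of 0.123, Hbb-bh1 in 1 library with 0.0544, and Hba-x was listed at 0 in every library. The 4 globin genes took between 0.0154% of all counts (95% Wilson interval 0.0146% to 0.0162%, LAM replicate 1) and 0.0832% (0.0817% to 0.0847%, Sham_Saline replicate 3), and the 4 neutrophil genes between 0.0195% (0.0188% to 0.0202%, SNA_NAC replicate 2) and 0.0512% (0.0501% to 0.0524%, Sham_Saline replicate 3). These intervals cover counting error only. Total counts per sample ran from 6472476 to 42435331, and the lowest count of any of the 9 genes in any sample was 66.

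The red blood cell transcripts were among the most variable genes between replicates. Values below are CPM, that is counts divided by the TMM-scaled total of their library. Hba-a1 was 22.1, 117 and 79.6 CPM in Sham_Saline replicates 1 to 3, 22.7, 24.8 and 61.5 in SNA_Saline, and 19.5, 11.9 and 19.9 in SNA_NAC. It was 24.4, 25.5 and 10.5 CPM in Sham_H2O2, 8.59, 30.3 and 26.5 in LAM, and 32.2, 24.6 and 91.4 in DCA. Its highest library was thus 13.6 times its lowest, and 1 or 2 libraries stood above the rest in Sham_Saline, SNA_Saline and DCA. The SNA_NAC libraries lay below every library of those 3 groups, and every other pair of groups overlapped. Hba-a2 ran from 9.52 (LAM replicate 1) to 92.2 CPM (Sham_Saline replicate 2), a median of 24.9 and a ratio of 9.68.

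Hbb-bs, the most abundant globin transcript, was 153, 456 and 551 CPM in Sham_Saline, 184, 273 and 464 in SNA_Saline, and 140.1, 135 and 200 in SNA_NAC. In Sham_H2O2 it was 161, 180 and 176 CPM, in LAM 114, 291 and 291, and in DCA 227, 240.4 and 440. The 3 Sham_H2O2 values lay close together, while Sham_Saline spanned a factor of more than 3. Hbb-bt followed with a range of 24.9 to 100.3 CPM and a ratio of 4.02 between its highest and lowest library. Alas2 was 18.4, 26.6 and 33.8 CPM in Sham_Saline, 16.5, 19.2 and 30.1 in SNA_Saline, 12.3, 12.6 and 17.7 in SNA_NAC, 10.2, 12.2 and 13.2 in Sham_H2O2, 7.87, 22.01 and 22.2 in LAM, and 16.6, 20.4 and 31.8 in DCA. LAM replicate 1 was the lowest library for all 5 red blood cell genes.

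The neutrophil transcripts varied less. S100a8 was 87.8, 93.2 and 154 CPM in Sham_Saline, 138, 115 and 149 in SNA_Saline, and 66.5, 71.1 and 88.4 in SNA_NAC. It was 72.3, 67.8 and 184 CPM in Sham_H2O2, 99.2, 114 and 175 in LAM, and 116, 82.4 and 82.8 in DCA. The third library was the highest in each group except DCA, by a factor of more than 2 in Sham_H2O2. S100a9, its partner subunit, ran from 83.3 CPM (SNA_NAC replicate 2) to 237 (Sham_Saline replicate 3). Ngp ran from 35.9 to 83.7 CPM and Retnlg from 8.53 to 23.1, each with its lowest value in Sham_H2O2 replicate 1. The ratio of the highest to the lowest library was 2.77 for S100a8, 2.84 for S100a9, 2.33 for Ngp and 2.71 for Retnlg.

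**Figure D1:**
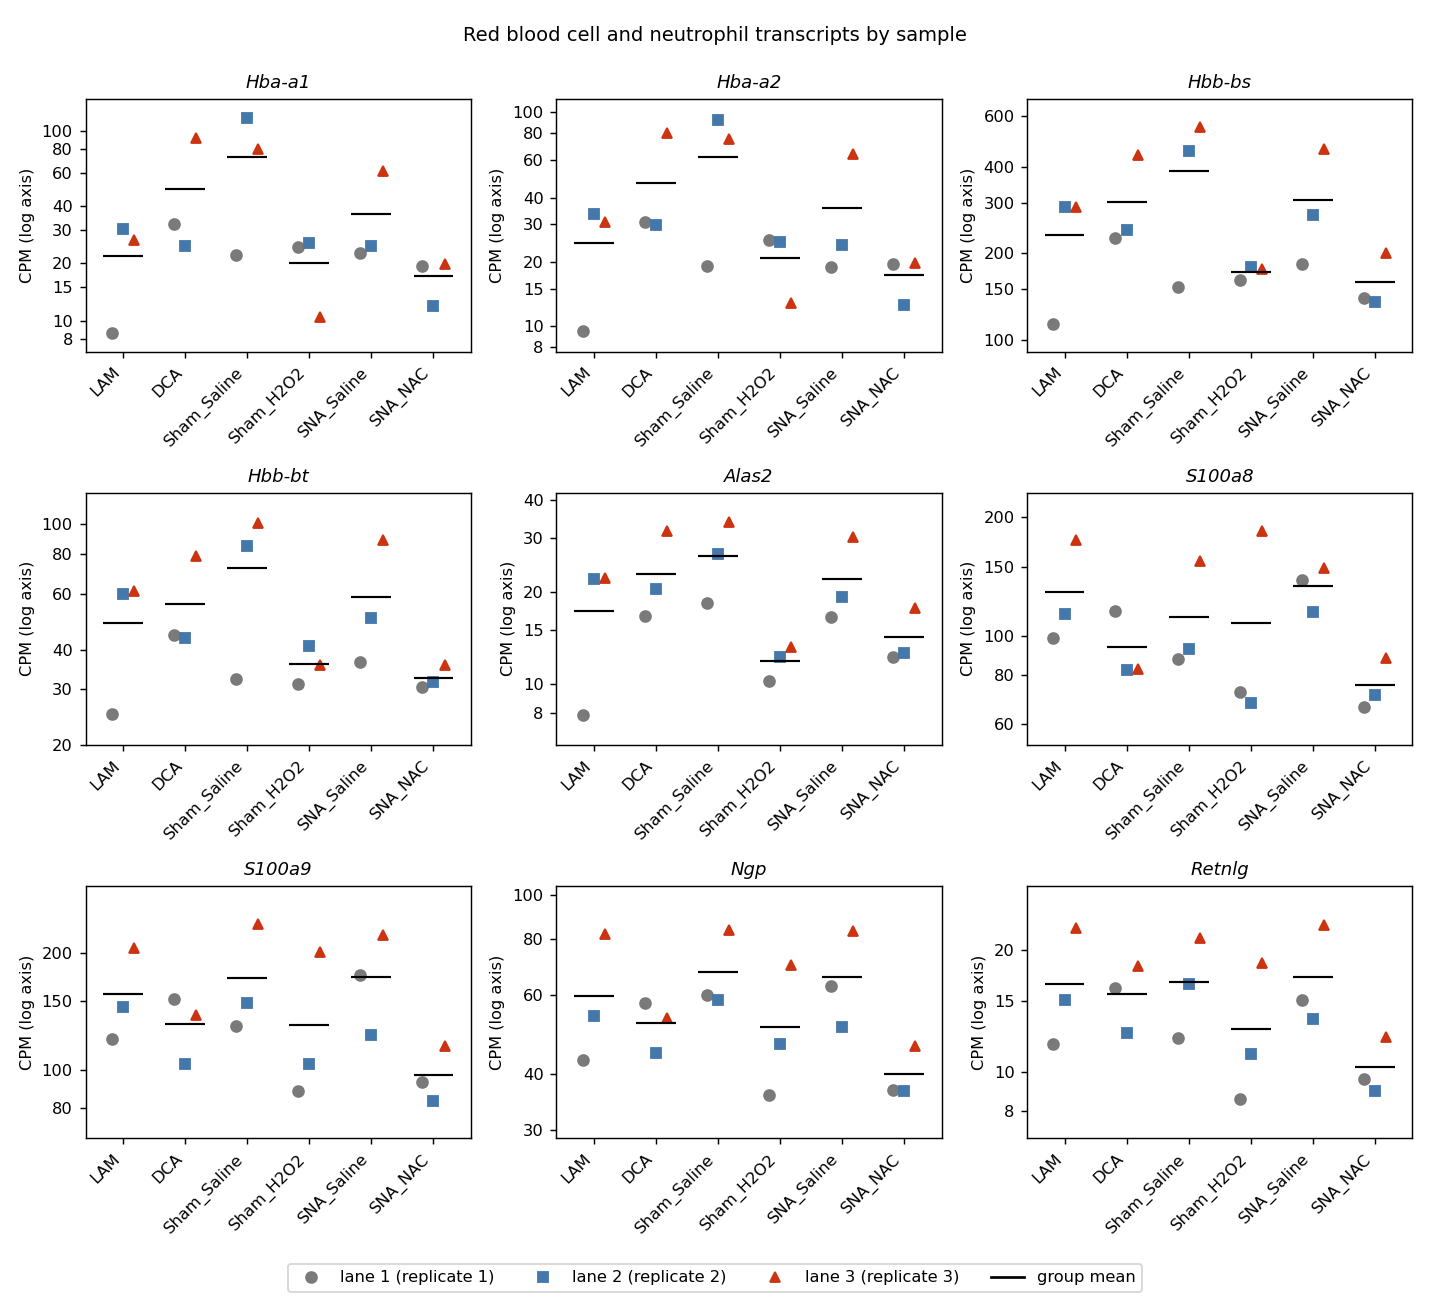
CPM of the 9 genes in each of the 18 samples (log axis), by group, with the sequencing lane as marker and the arithmetic group mean as a bar. The lane 3 library was the highest of its group in 6 of 6 groups for Alas2 and Retnlg, and Hba-a1 spread from 8.59 to 117 CPM.

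The SD of log2 CPM within groups was 0.90 for Hba-a1, larger than that of 99.6% of the 12991 genes with a mean count of at least 50. It was 0.86 for Hba-a2, 0.64 for Hbb-bs, 0.58 for Hbb-bt and 0.49 for Alas2, each above at least 96.0% of those genes. For S100a8, S100a9, Retnlg and Ngp it was 0.45, 0.42, 0.41 and 0.35, and for Ngp 85.1% of the genes had a smaller value. The median gene had 0.21. This spread between replicates is the error against which the group differences below stand.

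No difference in the transcripts of either cell type passed the test 24 hours after sciatic injury. In SNA_Saline against Sham_Saline 0 of the 9 genes passed an adjusted p of 0.05 in edgeR's quasi-likelihood test or in DESeq2, and 0 had an unadjusted p under 0.05 in edgeR. The same fit called 2.73% of all genes, and 22.5% had an unadjusted p under 0.05. The 5 red blood cell genes had a median log2 fold change of -0.33, from -1.002 ± 0.60 (SE) for Hba-a1 (adjusted p = 0.311) to -0.25 for Alas2. The 4 neutrophil genes had a median of 0.04, with S100a8 at 0.26 ± 0.33 (adjusted p = 0.623), and the median of all genes was -0.03. Single libraries moved these values: the red blood cell median was -0.03 without Sham_Saline replicate 3 and -0.76 without SNA_Saline replicate 3. Hba-a1 was at -0.47 without Sham_Saline replicate 2 and at -1.62 without SNA_Saline replicate 3, and the neutrophil median lay between -0.21 (without SNA_Saline replicate 3) and 0.30 (without Sham_Saline replicate 3). All 9 genes overlapped between the groups, where 19.1% of all genes did not.

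None of the 9 transcripts passed the test after dorsal column injury. In DCA against LAM edgeR called 0 of 9 genes and 0% of all genes, 0 of 9 had an unadjusted p under 0.05 (5.04% of all genes did), and DESeq2 also called 0 of 9. The red blood cell genes had a median log2 fold change of 0.38, with Hba-a1 at 1.16 ± 0.61 (adjusted p = 0.624), on means of 49.4 CPM in DCA and 21.8 in LAM. The neutrophil genes had a median of -0.23, with S100a8 at -0.47 ± 0.33 (adjusted p = 0.624). Single libraries moved these values: Hba-a1 was at 0.36 without DCA replicate 3, the red blood cell median was 0.04 without LAM replicate 1, and the neutrophil median was 0.04 without LAM replicate 3. Every one of the 9 overlapped between the groups, where 21.7% of all genes did not, and LAM replicate 1 was low in all 5 red blood cell genes.

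With N-acetyl-cysteine after sciatic injury, the means of all 9 transcripts were lower than with saline. The median log2 fold change in SNA_NAC against SNA_Saline was -0.95 for the red blood cell genes and -0.79 for the neutrophil genes. Over all genes the median was 0.00, and 50.6% of genes lay below 0. In the adjusted test 0 of 9 genes and 0% of all genes were called, by edgeR and by DESeq2 alike. At an unadjusted p under 0.05 edgeR gave 6 of 9 genes, against 2% of all genes. S100a9 averaged 97.1 ± 16.2 CPM (SD, n = 3) with N-acetyl-cysteine and 173 ± 49.7 with saline. Its log2 fold change was -0.84 ± 0.31 (SE), and each of the 9 genes had an adjusted p of 1.00 in edgeR. Ngp averaged 39.9 ± 5.41 and 65.7 ± 16.4 CPM (log2 fold change -0.72 ± 0.26), S100a8 75.3 ± 11.5 and 134 ± 17.3 (-0.83 ± 0.33), and Retnlg 10.2 ± 1.72 and 17.2 ± 5.15 (-0.75 ± 0.30). The smallest unadjusted p of the neutrophil genes was that of Ngp, 0.0120 in edgeR. In the red blood cell class it was that of Hbb-bs, 0.0433, on means of 158 ± 36.0 and 307 ± 143 CPM and a log2 fold change of -0.95 ± 0.44.

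The groups did not overlap for 6 of the 9 genes, all lower with N-acetyl-cysteine, where 5.63% of all genes were lower without overlap. These were the 4 neutrophil genes, Hba-a1 and Hbb-bt. Within lanes, each holding 1 library per group, 8 of 9 genes were lower in all 3 lanes, and Hba-a2 was lower in lanes 2 and 3 and 0.05 higher in lane 1 (log2). The share of all genes lower in all 3 lanes was not computed. Libraries of the same lane are from different animals, so these are not paired differences. For S100a8 the lane differences were -1.06, -0.69 and -0.75, and for Hba-a1 they were -0.22, -1.05 and -1.62. Single libraries moved these values. Without SNA_Saline replicate 3, the median of the red blood cell genes was -0.41 and that of the neutrophil genes -0.57. In edgeR 0 of 9 genes then had an unadjusted p under 0.05, as did 230 of all genes. That count was 1 without SNA_NAC replicate 2 (243 of all genes), 2 without SNA_NAC replicate 1 (203) and 8 without SNA_Saline replicate 1 (200). With the replicate block it was 7 (308 of all genes), and with only the 2 groups 9 (1326). Members of the same cell type vary together, so the 9 genes are not 9 separate observations.

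**Figure D2:**
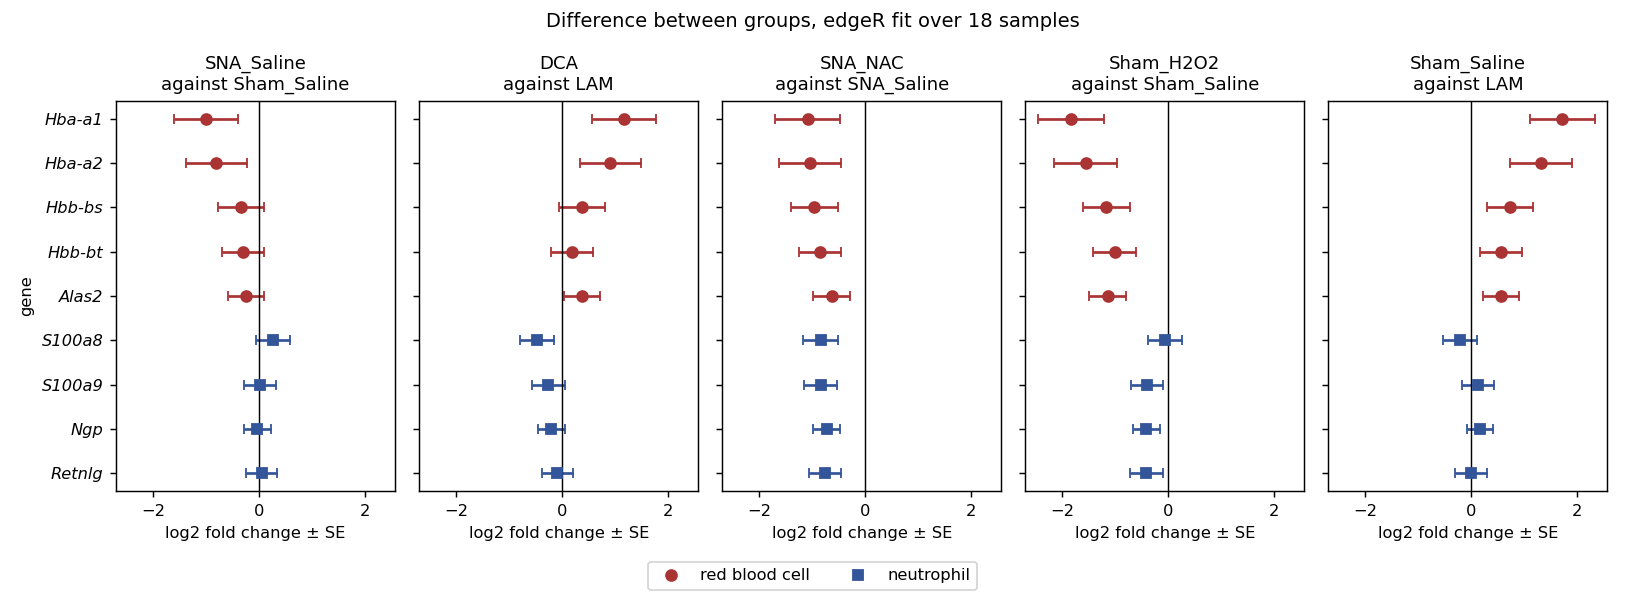
Log2 fold change ± SE of the 9 genes in 5 comparisons, from 1 edgeR fit over 18 samples, with red blood cell genes as circles and neutrophil genes as squares. All 9 lie below 0 in SNA_NAC against SNA_Saline, between -1.08 and -0.63, and none of the values in any panel passed an adjusted p of 0.05.

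Hydrogen peroxide on the uninjured nerve went with lower mean levels of the red blood cell genes, none past the adjusted test. In Sham_H2O2 against Sham_Saline edgeR called 0 of 9 genes and 0% of all genes, and DESeq2 called 0 of 9. All 9 values lay below 0, as did 52.5% of all genes. The 5 red blood cell genes had a median log2 fold change of -1.16 and all 5 an unadjusted p under 0.05, where 9.15% of all genes did. Alas2 averaged 11.9 ± 1.52 CPM (SD, n = 3) with peroxide and 26.3 ± 7.70 with saline, a log2 fold change of -1.14 ± 0.35 (SE). In edgeR its unadjusted p was 0.00525 and its adjusted p 0.449. It was the 1 gene of the 9 whose groups did not overlap, where 3.27% of all genes were lower without overlap. Hba-a1 had the largest difference, -1.83 ± 0.63, on means of 20.2 and 72.9 CPM. The neutrophil genes had a median of -0.40, from -0.41 for Ngp to -0.06 for S100a8. In the main edgeR fit, which has no lane term, 0 of these 4 had an unadjusted p under 0.05. Their median was -0.14 without Sham_Saline replicate 3 and -0.72 without Sham_H2O2 replicate 3, and that of the red blood cell genes lay between -1.55 and -0.92 with a sample left out. With the replicate number as a block in edgeR, 8 of the 9 genes had an unadjusted p under 0.05, neutrophil genes among them. So did 1092 of all genes, and none of the 9 was called. Both limma fits on FPKM gave 3 of 9, beside 1594 and 1551 of all genes.

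Sham_Saline replicate 1 did not share the high globin level of the other 2 Sham_Saline libraries, and within lane 1 the differences were 0.14 for Hba-a1, 0.40 for Hba-a2 and 0.08 for Hbb-bs, against -2.91, -2.54 and -1.65 in lane 3. Alas2 was lower with peroxide in all 3 lanes, by differences of -0.84, -1.11 and -1.35. Sham_Saline also serves as the control for sciatic injury, so these 2 comparisons and the next share its 3 libraries.

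None of the 9 transcripts passed the test between the surgical controls. In Sham_Saline against LAM the 5 red blood cell genes were all higher in Sham_Saline, with a median log2 fold change of 0.73, and the 4 neutrophil genes had a median of 0.06. Hba-a1 had 1.72 ± 0.61 (adjusted p = 0.107), on means of 72.9 and 21.8 CPM, and Ngp had 0.17 ± 0.25 (adjusted p = 0.658). Below 0 were 2 of the 9 genes and 47.7% of all genes, and all 9 overlapped between the groups, where 30.6% of all genes did not. edgeR called 0 of 9 genes and 0.0699% of all genes (11 genes, or 6 with the replicate number as a block), and 2 of 9 had an unadjusted p under 0.05, a share not above the 30.3% of all genes. DESeq2 called 0 of 9. The median of the red blood cell genes was 0.39 without Sham_Saline replicate 3 or without LAM replicate 1, and 1.12 without Sham_Saline replicate 1. That of the neutrophil genes lay between -0.20 (without Sham_Saline replicate 3) and 0.34 (without LAM replicate 3). Without Sham_Saline replicate 1, Hba-a1 at 2.14 (adjusted p = 0.0240 in edgeR), Hba-a2 at 1.74 and Hbb-bs at 1.12 passed. These 3 of 9 stood beside 5009 of the 15730 genes in the count table, a similar share.

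The difference of the 2 injury responses, sciatic minus dorsal column, was tested in the same fit. It was -2.16 ± 0.85 for Hba-a1 (adjusted p = 0.113), with a median of -0.72 for the red blood cell genes and 0.22 for the neutrophil genes. S100a8 had 0.73 ± 0.46 (adjusted p = 0.276). edgeR called 0 of 9 genes and 1.61% of all genes (254 genes, or 118 with the replicate block), and 1 of 9 had an unadjusted p under 0.05, where 31.4% of all genes did. DESeq2 called 0 of 9. Without Sham_Saline replicate 1, Hba-a1 at -2.59 (adjusted p = 0.0272 in edgeR) and Hba-a2 at -2.14 passed. These 2 of 9 stood beside 4600 of the 15730 genes in the count table, and were not a larger share.

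These transcripts were on average highest in sequencing lane 3, though none passed the adjusted test for lane, which was chosen after seeing the data. Each group had 1 library in each of the 3 lanes, and the labels number the replicates like the lanes. With group in the fit, an edgeR test over the 3 lanes called 0.00636% of all genes (1 gene) and none of the 9. At an unadjusted p under 0.05 it gave 7 of the 9, against 1.65% of all genes. Among the p-values of all 15730 genes, Retnlg ranked 3, Alas2 6, S100a9 9, Ngp 12, Hbb-bs 14, Hbb-bt 16, S100a8 47, Hba-a2 403 and Hba-a1 1027. The adjusted p was 0.657 for Retnlg and Alas2 and higher for the rest. DESeq2 was not run for lanes.

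In lane 3 against lane 1, the log2 difference was 0.99 for Hbb-bs, 0.97 for Hba-a2, 0.90 for Hbb-bt and Hba-a1, and 0.83 for Alas2. It was 0.65 for Retnlg, 0.54 for S100a9, 0.51 for S100a8 and 0.48 for Ngp. Lane 2 stood between the other lanes for the red blood cell genes, with 0.59 above lane 1 for Hbb-bs and 0.46 for Alas2, but at the level of lane 1 for the neutrophil genes, with 0.08 for Retnlg and -0.10 for S100a8. The lane 3 library was the highest of its group in at least 5 of 6 groups for 7 of the 9 genes, which held for 1.54% of all genes. Hba-a1 and Hba-a2 were the exceptions, at 3 of 6 groups each. The 6 libraries of a lane were sequenced together, and whether their animals were also operated on or dissected together is not given in the sources used here. Lane and group are balanced, so the lane differences do not move with the comparisons above.

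**Figure D3:**
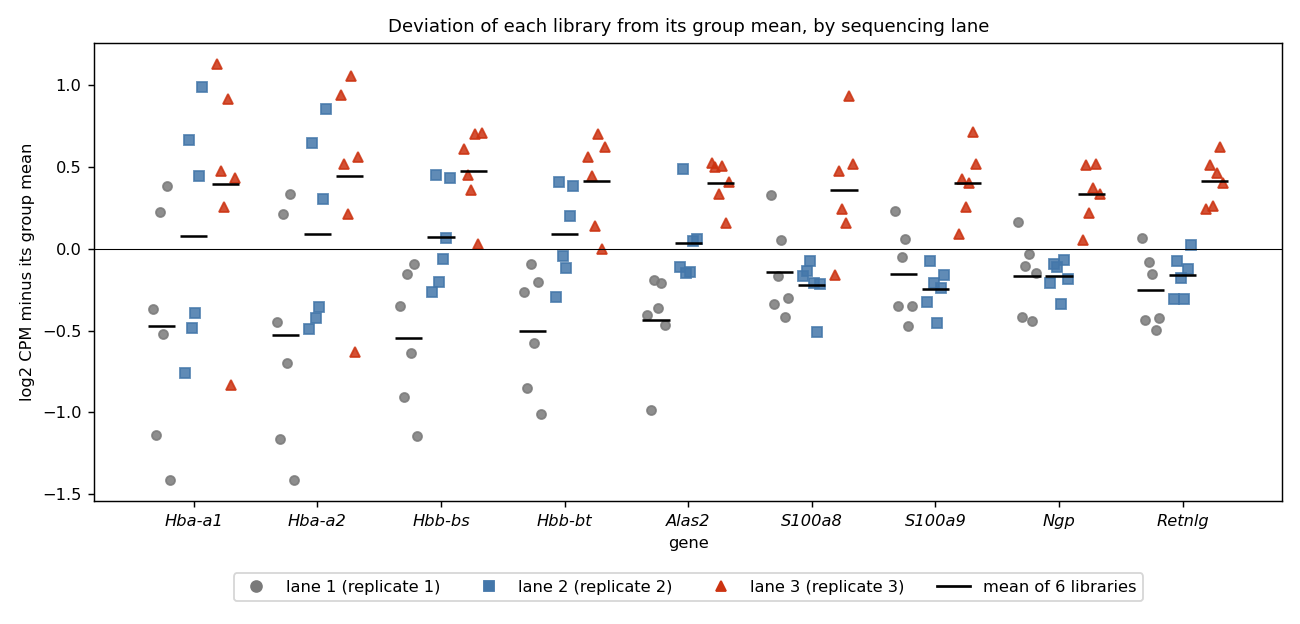
Log2 CPM of each library minus the mean of its group, for the 9 genes, split by sequencing lane, with 6 libraries a lane and a bar at their mean. Lane 3 lies above 0 in all 6 groups for Retnlg and Alas2, while lane 2 lies near lane 1 for the neutrophil genes and above it for the red blood cell genes.

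The transcripts of 1 cell type varied together from sample to sample, and those of the 2 cell types did so less. A high r with Hba-a1 was not particular to red blood cell genes. Of the 12991 genes with a mean count of at least 50, 21% had r above 0.7 with Hba-a1, and 0.6% with S100a8. In the lists below, 4 of 8 neuron genes and 3 of 6 glia genes had r above 0.7 with Hba-a1. Of the other red blood cell and erythroid genes, 2 of 18 did. Hba-a1 and Hba-a2 had Pearson's r = 0.99 and Spearman's rho = 0.96 over 18 samples, and Hba-a1 and Alas2 r = 0.84 and rho = 0.78. S100a8 had r = 0.92 with S100a9 (rho = 0.91), r = 0.87 with Ngp (rho = 0.82) and r = 0.83 with Retnlg (rho = 0.82). Of the 6 relations computed, these 5 had an adjusted p between 2e-05 and 2.4e-05 for r in a permutation test with 100000 resamples, where a raw p of 1e-05 is the smallest the resamples can give. Hba-a1 and S100a8 had r = 0.10 and rho = 0.22 (permutation p = 0.7 for r, adjusted p = 0.7). Reads matching both Hba-a1 and Hba-a2 can enter their relation, depending on how they were counted, and S100a8, S100a9, Ngp and Retnlg share no such reads.

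Without the 2 samples farthest from the median, r was 0.98 for Hba-a1 with Hba-a2, 0.82 for Hba-a1 with Alas2, and 0.91, 0.85 and 0.81 for S100a8 with S100a9, Ngp and Retnlg. As deviations from group means the same 5 values were 0.99, 0.75, 0.92, 0.87 and 0.83. Within lanes 1, 2 and 3 (6 samples each), r was 0.97, 0.99 and 1.00 for Hba-a1 with Hba-a2, and 0.75, 0.76 and 0.99 for Hba-a1 with Alas2. For S100a8 it was 0.96, 0.77 and 0.88 with S100a9, 0.82, 0.68 and 0.87 with Ngp, and 0.91, 0.74 and 0.68 with Retnlg. Hba-a1 with S100a8 gave 0.09, 0.33 and -0.33 within lanes, and 0.29 without the 2 samples farthest from the median. Over all pairs of the 9 genes, r lay between 0.84 and 0.99 within the red blood cell genes (median 0.92 over 10 pairs), between 0.83 and 0.97 within the neutrophil genes (0.93 over 6 pairs) and between 0.10 and 0.78 across (0.56 over 20 pairs).

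**Figure D4:**
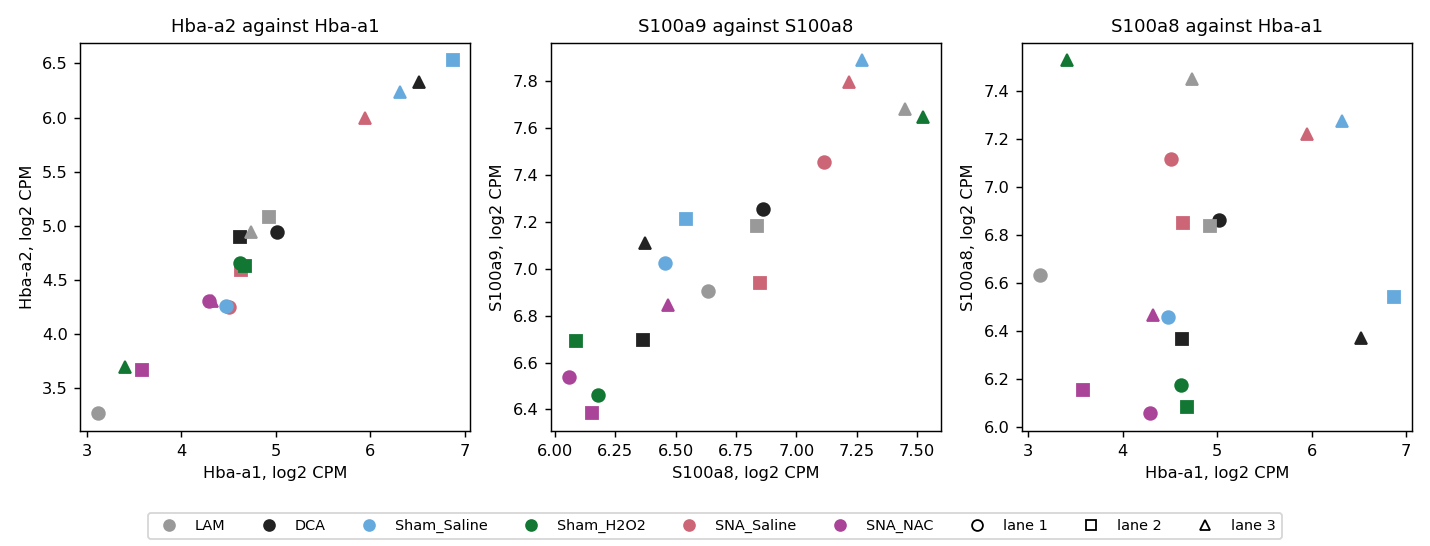
Log2 CPM of 3 pairs of genes in 18 samples, with the group as colour and the lane as marker. Hba-a2 followed Hba-a1 (r = 0.99) and S100a9 followed S100a8 (r = 0.92), while S100a8 and Hba-a1 had r = 0.10. That was the lowest r of the 20 pairs across the cell types, whose median was 0.56.

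Count ratios within a sample were steadier than the levels. The count ratio of Hba-a2 to Hba-a1 had a median of 1.00 and ran from 0.788 (Sham_Saline replicate 2) to 1.23 (Sham_H2O2 replicate 3). Its SD on the log2 scale was 0.18, against 1.05 for the level of Hba-a1. S100a9 to S100a8 ran from 1.07 to 1.67 with an SD of 0.19, against 0.47 for the level of S100a8, and Hbb-bt to Hbb-bs from 0.179 to 0.233 with an SD of 0.12. The ratio of summed beta to summed alpha globin counts was less steady, from 2.58 in Sham_Saline replicate 2 through a median of 4.86 to 9.06 in Sham_H2O2 replicate 3, with an SD of 0.45. These are ratios of counts and not of levels per length. Between the cell types, Hba-a1 to S100a8 ran from 0.0569 to 1.26 with an SD of 1.09.

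The alpha globin level and the beta to alpha ratio moved with the GC slope of the library, a measure of how far GC-rich genes were over-represented. The slope is the change in a gene's log2 CPM, relative to its mean over the samples, per SD of the GC share of its longest transcript, over 15648 genes, and it ran from -0.22 in Sham_H2O2 replicate 3 to 0.43 in Sham_Saline replicate 2. It had r = 0.89 with Hba-a1, 0.86 with Hba-a2, 0.66 with Hbb-bs, 0.68 with Hbb-bt and 0.56 with Alas2 over 18 samples (rho = 0.79, 0.76, 0.54, 0.55 and 0.45). With S100a8 it had r = -0.17, with S100a9 0.19, with Ngp 0.22 and with Retnlg 0.30, and with the log2 beta to alpha ratio r = -0.93 (rho = -0.94). Of these 10 relations, chosen after seeing the data, the 5 red blood cell genes and the ratio had an adjusted p of at most 0.024 for r in a permutation test. For rho, Alas2 had an adjusted p of 0.102 in the permutation test. For the neutrophil genes the adjusted p for r was 0.323 or more. The slope is fitted to the same kind of log2 CPM values, so genes of high GC share tend to follow it by construction. For the same reason a ratio of genes of lower to genes of higher GC share tends to run against it. The permutation test does not allow for this, so its p-values do not show a relation beyond GC share. The share of all genes with such an r was not tested.

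Without the 2 samples farthest from the median slope, r was 0.81 for Hba-a1, 0.52 for Hbb-bs, 0.43 for Alas2 and -0.87 for the ratio. Within lanes 1, 2 and 3 it was 0.86, 0.89 and 0.99 for Hba-a1 and -0.92, -0.99 and -0.98 for the ratio. The GC share was 57.2% for Hba-a1 and 56.9% for Hba-a2, above 88.3% and 86.8% of genes, and 51.3% for Hbb-bs and 50.8% for Hbb-bt. It was 53.3% for Alas2, 50.2% for Ngp, 46.7% for Retnlg, 45.1% for S100a9 and 44.2% for S100a8. With offsets for GC share in the edgeR fit, 0 of 9 genes passed in any of the 6 comparisons. The log2 fold change of Hba-a1 then went from -1.002 to -0.56 in SNA_Saline against Sham_Saline and from 1.16 to 0.78 in DCA against LAM. It became 1.10 in Sham_Saline against LAM, -1.37 in Sham_H2O2 against Sham_Saline, -1.34 in the difference of the injury responses and -0.99 in SNA_NAC against SNA_Saline. The part of the GC slope in the group differences was not tested beyond these offsets.

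**Figure D5:**
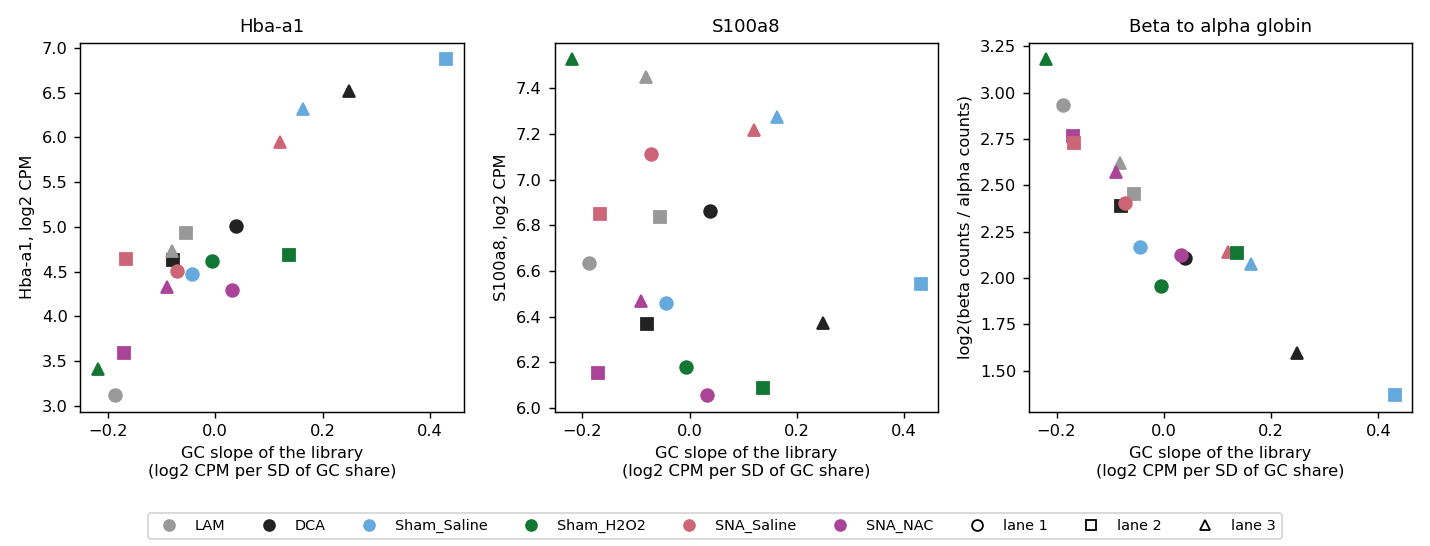
Log2 CPM of Hba-a1 (left) and S100a8 (middle) and the log2 ratio of beta to alpha globin counts (right) against the GC slope of the library, for 18 samples with the group as colour and the lane as marker. Hba-a1 had r = 0.89, S100a8 r = -0.17 and the ratio r = -0.93 with the slope.

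The genes most like Hba-a1 and S100a8 in pattern were named by the highest Pearson's r of log2 CPM over 18 samples, among genes with a mean count of at least 50. For Hba-a1 they were Dok1 (r = 0.954), an adaptor of tyrosine kinase signalling, Aldh2 (0.944), mitochondrial aldehyde dehydrogenase, Cadm4 (0.942), a cell adhesion molecule of Schwann cells, Wdr54 (0.937) and Prr3 (0.934). Their log2 ranges were at most 1.53, and 21% of the 12991 genes with such a mean count had r above 0.7 with Hba-a1. For S100a8 they were Hmgb2 (0.879), a chromatin protein of dividing cells, Ifitm6 (0.855), Mmp8 (0.851), neutrophil collagenase, and Cks2 (0.834), a cell cycle protein. Of the same 12991 genes, 0.6% had r above 0.7 with S100a8. Mmp8 also belongs to the neutrophil granule list below.

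Other transcripts of the same and of neighbouring cell types were read from 13 lists, 106 of whose genes were in the count table. In edgeR 0 genes of any list passed in either direction in any of the 6 comparisons, and 0 to 9 genes of a list had an unadjusted p under 0.05. DESeq2 was not read for the lists. Of 15 other neutrophil granule genes, all had a log2 fold change below 0 in SNA_NAC against SNA_Saline (median -0.75, 9 with an unadjusted p under 0.05) and all 15 in Sham_H2O2 against Sham_Saline (median -0.79, 8 with such a p). Of all genes, 50.6% and 52.5% lay below 0 in these 2 comparisons, and 2% and 9.15% had such a p. The 2 of highest mean CPM were Lyz2, lysozyme, also made by macrophages, at 118 CPM with -0.30 in the first comparison and -0.06 in the second, and Ltf, lactoferrin, at 27.9 CPM with -0.65 and -0.52. The lowest mean of the 15 was 0.579 CPM. Genes of 1 cell type can vary together, so a list does not count separate observations. In the lane test 9 of the 15 had an unadjusted p under 0.05, against 1.65% of all genes, and their summed level ran from 138 to 273 CPM in lane 1 and from 207 to 316 in lane 3. Of 13 transcripts of mature neutrophils, such as the chemokine receptor Cxcr2, 12 were below 0 with N-acetyl-cysteine (median -0.61, 4 with an unadjusted p under 0.05) and 10 with peroxide (median -0.59, 2 with such a p), and 4 of 13 had such a p for lane. The same shares of all genes, 50.6% and 52.5% below 0, 2% and 9.15% with such a p, and 1.65% for lane, are the background of these counts. In SNA_Saline against Sham_Saline, 11 of the 15 granule genes lay below 0 (median -0.35), as did 53.5% of all genes. Of the 15, 3 had such a p, against 22.5% of all genes. In Sham_Saline against LAM, 12 lay above 0 (median 0.44) and 4 had such a p, against 30.3% of all genes. The 4 neutrophil members had medians of 0.04 and 0.06 there, and the 13 mature neutrophil transcripts 0.09 and -0.19.

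The neutrophil-attracting chemokines and their growth factor were at or near 0 in FPKM, though some were above 0 in most libraries. Of 8 genes for neutrophil-attracting chemokines, their growth factor and calprotectin receptors, 2 were in the count table, Tlr4 at 5.75 and Csf3r at 3.96 CPM. In the FPKM table Cxcl1 had a mean of 0.265 (above 0 in 16 libraries) and Cxcl5 of 0.106 (above 0 in 17). Cxcl2 had 0.0257 and Csf3 0.0163, and Cxcl3 was listed at 0 in every library.

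Of 22 other red blood cell and erythroid transcripts 18 were in the count table, 14 of them below 0 in Sham_H2O2 against Sham_Saline (median -0.72, 7 with an unadjusted p under 0.05) and 15 in SNA_NAC against SNA_Saline (median -0.22, 2 with such a p). Below 0 were 52.5% and 50.6% of all genes, and 9.15% and 2% had such a p. Those of highest mean CPM, Tfrc (transferrin receptor, 247 CPM) and Bnip3l (mitophagy receptor, 183 CPM), are made in many tissues and had r = -0.83 and -0.71 with Hba-a1. In Sham_H2O2 against Sham_Saline the log2 fold change was 0.23 for Tfrc and 0.31 for Bnip3l, and in SNA_NAC against SNA_Saline it was 0.12 and -0.08. In the lane test 1 of 18 had an unadjusted p under 0.05, against 1.65% of all genes. The lowest mean of the 18 was 0.755 CPM. The erythroid transcription factor genes Klf1 and Gata1, in the FPKM table alone, had means of 0.181 and 0.0924. The 8 heme synthesis genes, led by Fech at 67.4 and Uros at 46.7 CPM, had medians between -0.36 and 0.28 in the 6 comparisons. The 10 genes of haemoglobin, heme and iron handling, led by Fth1 (ferritin heavy chain) at 2176 and Hmox2 (heme oxygenase) at 159 CPM, had medians between -0.55 and 0.25.

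Some markers of the ganglion, the labelled tissue, were high, with a mean FPKM of 617 for Nefh and 1121 for Calca of sensory neurons. Mbp of Schwann cells had 165. The lowest gene of the neuron list had 13.9 and that of the glia list 12.6. On the same scale the endothelial genes Pecam1 and Flt1 had 5.65 and 2.09, and the macrophage genes Csf1r and Mrc1 4.31 and 2.97. The platelet genes Pf4 and Itga2b had 5.51 and 0.641, and the lymphocyte genes Cd79a and Cd79b 1.59 and 1.51. The 6 endothelial genes had a median log2 fold change of 0.18 in SNA_NAC against SNA_Saline and -0.07 in Sham_H2O2 against Sham_Saline, with 5 of 6 above 0 in the first, and their summed level ran from 97.2 to 105 CPM with N-acetyl-cysteine and from 91.5 to 94.7 with saline after injury. The 9 macrophage genes had medians of -0.15 and 0.14, the 4 platelet genes -0.09 and -0.52, and the 5 lymphocyte genes -0.29 and -0.58. The 4 other globin genes listed, Cygb (cytoglobin, 24.4 CPM), Mb (myoglobin, 9.09 CPM), Ngb (neuroglobin) and the theta globin gene Hbq1b, had medians of -0.24 and -0.49. The neuron and glia lists had medians of 0.02 and -0.03 in the first comparison and -0.29 and -0.03 in the second. The part of vessels, of other blood cells and of dissection in the values of the 9 genes was not tested.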

How the data were processed

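RNA was measured by single-end sequencing of strand-specific, poly-A selected libraries, 6 libraries to a lane on 3 lanes, per the labels' protocols. The authors deposited whole-number counts per gene and FPKM values. The submitters' processing notes name TopHat2 2.0.12, Bowtie2 2.2.3, SAMtools 0.1.19, HTSeq 0.6.0 and the mm10 build, and how they treated shared reads is not given in the sources used here. Counts were tested with edgeR 4.0.16 (R 4.3.3; TMM, filterByExpr, which kept all 15730 genes, and the quasi-likelihood test) with all 18 samples in 1 fit by group. Benjamini-Hochberg adjustment ran over all genes tested, with a threshold of 0.05. The SE of a log2 fold change is its size over the root of F. A prior count of 2 entered log2 CPM. Alternatives were DESeq2 1.42.0, no filter, a minimum of 10 counts, only the groups of a contrast, a replicate block, limma 3.58.1 on log2(FPKM + 1) and log2(FPKM + 0.1), and leaving out each sample. Chosen after seeing the data were GC share offsets (splines with 5 degrees of freedom), the same with the block, lane 3 left out, and the tests of lane and GC slope. The members and lists were chosen with earlier results of these data known.

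All members are named, and from each list the genes that passed or, where none did, the 2 of highest mean CPM. Of the genes this rule and the likeness rule (the 5 highest r) named, 2 are not reported here. Fech and Csf3r stand in 2 lists each. The replicate numbers equal the lanes in the labels and so mark a shared lane, but same-numbered samples are different animals. The mean correlation of same-numbered samples' deviations over all genes was -0.24 in SNA_Saline against Sham_Saline, 0.07 in DCA against LAM, 0.09 in SNA_NAC against SNA_Saline, 0.30 in Sham_H2O2 against Sham_Saline and 0.31 in Sham_Saline against LAM. The replicates are pools of 2 mice each. With 3 samples a group, an exact permutation test of a single value cannot go below 0.1. Figures were drawn with matplotlib 3.10.9.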

Additional observations from a re-analysis of the deposited data

How the results depend on the processing

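The 9 genes stayed uncalled in all 6 comparisons under 7 alternatives that keep all samples (no filter, a minimum of 10 counts, replicate block, only the groups of a contrast, DESeq2, both limma fits) and under 3 chosen after seeing the data (GC offsets, GC offsets with the replicate block, lane 3 left out), which gave 0 called members each. Leaving out single samples gave 0 to 3 called members in Sham_Saline against LAM and 0 to 2 in sciatic minus dorsal column response, and 0 in the other 4 comparisons. Counts of called genes moved more. In SNA_Saline against Sham_Saline (430) they were 65 with only the groups of the contrast, 863 with DESeq2, 865 with GC offsets, 729 with GC offsets and replicate block, and 174 to 2548 with a sample left out. In Sham_Saline against LAM (11) they were 4 with a minimum of 10 counts, 6 with the replicate block, 1 with only its groups, 1083 with DESeq2, 5 with limma on log2(FPKM + 1), 3 without lane 3, 19 with GC offsets, 7 with GC offsets and block, and 4 to 5009 with a sample left out. In sciatic minus dorsal column response (254) they were 118 with the replicate block, 151 with only its groups, 1638 with DESeq2, 32 without lane 3, 526 with GC offsets, 400 with GC offsets and block, and 55 to 4600 with a sample left out. DESeq2 called 2 genes in DCA against LAM and 4 in Sham_H2O2 against Sham_Saline, where edgeR called 0 (793 and 1440 at an unadjusted p under 0.05). The replicate block changed no call of a member. Of 54 member fold changes, 1 changed sign under those 7 alternatives: S100a9 in SNA_Saline against Sham_Saline (0.02) became -0.01 in both limma fits, and -0.12 under GC offsets with or without the block. The 3 later ones changed the sign of small values: Retnlg in SNA_Saline against Sham_Saline (0.05) to -0.01 without lane 3, -0.03 with GC offsets and -0.05 with GC offsets and block; in DCA against LAM without lane 3, Ngp to 0.06 and Retnlg to 0.08, and Retnlg to 0.04 with GC offsets and block; and in the difference of the responses, S100a9 to -0.02 with GC offsets and block, Ngp to -0.12 without lane 3, and Retnlg to -0.09 without lane 3, -0.02 with GC offsets and -0.09 with GC offsets and block. Leaving out samples changed signs as well. In SNA_Saline against Sham_Saline the ranges were -0.76 to 0.01 for Hbb-bs, -0.20 to 0.32 for S100a9, -0.24 to 0.15 for Ngp and -0.22 to 0.27 for Retnlg. In DCA against LAM they were -0.15 to 0.38 for Hbb-bt, -0.40 to 0.10 for Ngp and -0.29 to 0.22 for Retnlg, and in Sham_H2O2 against Sham_Saline -0.67 to 0.25 for S100a8. In Sham_Saline against LAM they were -0.52 to 0.07 for S100a8, -0.17 to 0.37 for S100a9 and -0.03 to 0.47 for Ngp, and in the difference of the responses -0.13 to 0.36 for Ngp and -0.17 to 0.36 for Retnlg. Retnlg in Sham_Saline against LAM had no direction at -0.002. All 9 values kept their sign in SNA_NAC against SNA_Saline under all 10 alternatives and with each sample left out. Where leaving out a sample left 2 in a group, the spread was pooled over all groups. Within single lanes, with 6 samples, these values of r no longer passed: 0.75 and 0.76 for Hba-a1 with Alas2 (lanes 1 and 2), 0.77 and 0.88 for S100a8 with S100a9 (lanes 2 and 3), 0.82, 0.68 and 0.87 with Ngp (lanes 1 to 3), and 0.74 and 0.68 with Retnlg (lanes 2 and 3). Hba-a1 with S100a8 changed sign to -0.02 as deviations from group means and to -0.33 within lane 3. Where no cause is stated, the cause was not tested. Counts of at least 66 in every library leave the spread between samples, not counting error, as the larger error of these values.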
